A study of Mus musculus with 12 samples.

Results

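The 7 genes described here are the mouse globin genes Hbb-bs, Hbb-bt, Hbb-bh1 and Hbb-y of the beta-globin locus, the alpha-globin genes Hba-a1 and Hba-a2, and Alas2. They were chosen by gene symbol, as globin genes and a red cell reference, out of 44930 genes in the deposited expression table. The 4 beta-globin genes lie on chromosome 7 among the class I odorant receptor genes. The alpha-globin genes are on chromosome 11 and Alas2 is on chromosome X, so those 3 served as a reference for the blood content of each tissue sample.

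Total RNA of dissected olfactory mucosa, the lining of the nose that holds the olfactory sensory neurons, was depleted of ribosomal RNA and sequenced in 6 wildtype mice and in 6 mice carrying the eB deletion. All 12 animals were males of age P30 on a mixed background given as 129S6;C57BL/6J. The deletion removes 1155 bases, chr7:102847692-102848846 (GRCm38), which the submitters name an enhancer of the class I receptors, and the labels give neither the zygosity of the deletion animals nor whether blood was flushed from the tissue. Each library is 1 animal and holds 13152662 to 23059835 reads assigned to genes. Omp, which marks mature olfactory sensory neurons, had a mean of 63950 normalized counts per animal, so the labelled tissue carried its defining marker. Over the 30 pairs of libraries from 1 genotype, counts differed by at least 14.7 times the sampling noise (chi-square over its degrees of freedom). No library was therefore the same library of its genotype sequenced again. Pairs across genotypes were not compared. In 4 libraries, wildtype 2 and 5 and deletion 1 and 4, more than 0.1% of reads were assigned to the gene model Gm10800 (0.329% to 11.02%), and results that move without them are given beside the main values.

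Adult hemoglobin is a tetramer of alpha-like and beta-like chains around heme. Red cells transcribe the alpha and beta loci, which sit on different chromosomes, in a balanced way under control of distal enhancers, the locus control region for the beta genes and a separate enhancer cluster for the alpha genes, together with factors such as GATA1 and KLF1. ALAS2 is the red cell form of the first enzyme of heme synthesis. Mature red cells keep globin mRNA for a while after losing the nucleus, so a tissue sample that contains blood carries these transcripts even where the tissue itself does not make them.

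The beta-globin genes span chr7:103812524-103853216 on the minus strand in GENCODE M21 (40.7 kb), between the class I receptor genes Olfr67 and Olfr66 and 964 kb from the deleted interval. That span lies inside a run of 151 class I receptor genes from chr7:102476579 to chr7:105369355. Hbb-bt (chr7:103812524-103813996) and Hbb-bs (chr7:103826534-103828096), both adult beta-globin genes, are nearest to the deletion. Hbb-bh1 (chr7:103841637-103843164) and Hbb-y (chr7:103851749-103853216) are the beta-like genes of the early embryo. Hba-a1 (chr11:32283511-32284465) and Hba-a2 (chr11:32296489-32297298) encode the adult alpha chain, and Alas2 is at chrX:150547375-150570638; these 3 are on the plus strand.

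The sequences just upstream of 4 of these genes are shown because they set the adult beta genes inside the receptor cluster beside the reference genes outside it. Each is the 250 bases before the gene's start in RefSeq GRCm38.p6, written 5′ to 3′ on the strand of the gene, with capitals marking matches on either strand to any of 4 words of regulatory DNA. The words are the CCAAT box, the TATA box as TATAA, the CACCC box bound by KLF1 and related factors, and the GATA motif as GATAA. The GENCODE models of these 4 genes begin inside the windows, upstream of the RefSeq starts. RefSeq promoter entries matched 6 of the 7 genes, with Hbb-bh1 having none.
Hbb-bs, chr7:103827929-103828178, minus strand: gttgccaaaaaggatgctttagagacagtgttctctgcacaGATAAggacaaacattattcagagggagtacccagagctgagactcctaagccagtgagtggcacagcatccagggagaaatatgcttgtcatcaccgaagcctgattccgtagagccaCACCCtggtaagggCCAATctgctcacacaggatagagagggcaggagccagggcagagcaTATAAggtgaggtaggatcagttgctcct
Hbb-bt, chr7:103813924-103814173, minus strand: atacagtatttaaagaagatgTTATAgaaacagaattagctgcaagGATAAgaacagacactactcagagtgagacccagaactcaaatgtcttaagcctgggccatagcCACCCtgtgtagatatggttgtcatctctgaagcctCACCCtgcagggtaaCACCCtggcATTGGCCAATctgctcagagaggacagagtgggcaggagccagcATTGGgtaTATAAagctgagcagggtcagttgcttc
Hba-a1, chr11:32283422-32283671, plus strand: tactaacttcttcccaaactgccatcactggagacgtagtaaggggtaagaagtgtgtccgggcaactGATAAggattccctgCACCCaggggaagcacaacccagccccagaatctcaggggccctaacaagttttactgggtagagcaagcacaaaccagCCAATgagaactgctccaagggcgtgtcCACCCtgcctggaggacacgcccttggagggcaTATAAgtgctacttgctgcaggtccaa
Alas2, chrX:150547167-150547416, plus strand: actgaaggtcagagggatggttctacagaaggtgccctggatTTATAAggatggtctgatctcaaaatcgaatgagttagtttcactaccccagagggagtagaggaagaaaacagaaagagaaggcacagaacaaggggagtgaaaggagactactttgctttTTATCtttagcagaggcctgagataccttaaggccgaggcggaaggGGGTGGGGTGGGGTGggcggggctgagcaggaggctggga
Hbb-bs, Hbb-bt and Hba-a1 each held a TATAA match within the 29 bases before the start, and a CCAAT match upstream of it, with Hbb-bt carrying 3 CCAAT matches, a pair of which abut. Alas2 held no CCAAT match in this window, 3 abutting CACCC matches on the opposite strand, and a pair of overlapping TATAA matches on opposite strands far from the start. Every printed promoter, as well as that of Hbb-y and Hba-a2, had 1 GATAA match. Such short words are common. Of 32851 RefSeq mouse promoters of the same length, 33.9% held CCAAT, 22.8% TATAA, 52.0% CACCC and 22.6% GATAA, so these matches describe letters and say nothing of binding. The promoters of Hba-a1 and Hba-a2 share a run of 247 bases, whereas the longest run shared by Hbb-bs and Hbb-bt is 14 bases.

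Scaled to exon length and library size (RPKM, computed from the recovered reads), Hbb-bs had the highest level of the 7 genes at 109 ± 48.1 (SD, n = 12 animals). Hba-a1 followed at 18.2 ± 7.67, then Hbb-bt at 10.1 ± 4.42 and Hba-a2 at 9.11 ± 4.15, and Alas2 at 2.58 ± 0.701. The ranges of Hbb-bt and Hba-a2 over the animals overlapped, and their difference within animals was not tested. The embryonic Hbb-y and Hbb-bh1 were lower again, at means of 0.202 and 0.0937. Values within the alpha pair and within the adult beta pair are uncertain, since 67.9% of the 75-base stretches of the Hba-a1 transcript also occur in Hba-a2 and 51.5% of those of Hbb-bs occur in Hbb-bt, and the handling of reads that map to several places is not given in the sources used here. Mouse strains differ in their adult beta-globin haplotypes, and RefSeq GRCm38.p6 also lists Hbb-b1 and Hbb-b2 of another haplotype. These 2 are absent from the genes of the deposited expression table, so they could not be analysed here. Where reads from that haplotype would be counted was not tested. The labels do not say which haplotype each of these mixed-background animals carried.

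Globin transcripts were a small part of the libraries. Hbb-bs and Hbb-bt together took 769 to 2956 reads per library, which is 0.00420% of gene reads in deletion 5 and 0.0188% in deletion 4. The 2 alpha-globin genes took 167 to 648 reads, and Alas2 took 60 to 189. Fewer red cells in the tissue and less globin RNA per red cell cannot be told apart in bulk samples such as these.

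**Figure D1:**
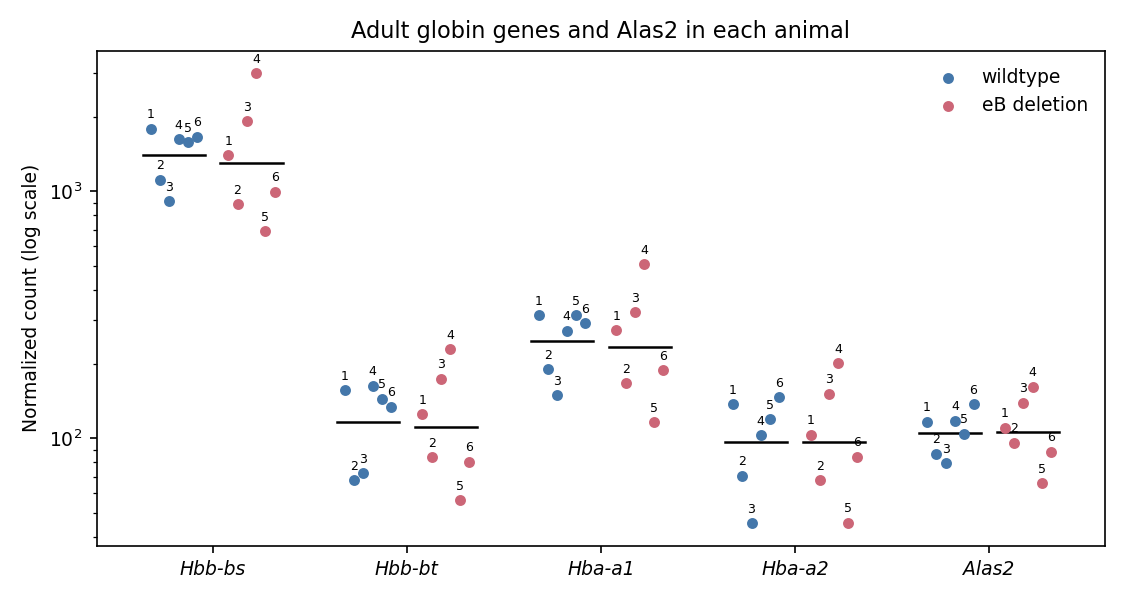
Normalized counts (log axis) of the members with the most reads, 1 numbered point per animal, wildtype beside eB deletion; lines are group means of the log values. Deletion 4 is the highest animal for all 5 genes, and the groups overlap.

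Of the members, 5 passed the low-value filter (a normalized count of at least 10 in at least 6 animals) and were tested with limma together with the other genes, 19100 in all. Past an adjusted p of 0.05 were 0 of the 5 members, beside 0.0% of the 19100 genes, and edgeR also called 0 genes whereas DESeq2 called 22. An unadjusted p under 0.05 was reached by 0 of the 5 members and by 5.64% of all tested genes (1078). Of all tested genes 9872 were higher and 9228 lower in the deletion animals.

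Hbb-bs had a lowest, median and highest normalized count of 912, 1601 and 1794 in wildtype animals, and of 689, 1197 and 3004 in deletion animals. Of the 6 deletion animals, 2 lay above every wildtype animal, 2 below and 2 between, so the deletion values spread to both sides of the wildtype range. Means were 1448 ± 350 and 1482 ± 864 (SD, n = 6 each). The log2 difference, deletion minus wildtype, was -0.11 ± 0.28 (SE), with an interval of -0.71 to 0.49 and an adjusted p of 0.986 in limma. The linear mean is higher and the log2 mean lower in the deletion group, as was the case for Hbb-bt and Hba-a1, with deletion 4 far above the rest. Without the 4 libraries with Gm10800 reads the log2 difference was -0.48, and without the 2 of them above 1% (wildtype 2 and deletion 4) it was -0.42, neither past the threshold, and the part of those reads in the difference was not tested. Leaving out deletion 4 alone gave -0.35 and leaving out deletion 5 alone gave 0.07.

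Hbb-bt, the nearest globin gene to the deletion, had a lowest, median and highest normalized count of 67.8, 140 and 163 in wildtype animals and of 56.2, 104 and 230 in deletion animals. The groups overlapped, with 2 deletion animals above and 1 below the wildtype range. The log2 difference was -0.06 ± 0.31 (SE; interval -0.72 to 0.60), with an adjusted p of 0.996 in limma. Without the 4 libraries named above it was -0.47, without deletion 4 alone -0.27 and without deletion 5 alone 0.14.

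The reference genes outside the receptor cluster had groups that overlapped too. Hba-a1 values were 150, 283 and 316 (lowest, median and highest) in wildtype animals and 116, 232 and 508 in deletion animals. The log2 difference for Hba-a1 was -0.07 ± 0.29 (SE; interval -0.68 to 0.53; limma adjusted p = 0.993). Deletion animals again lay on both sides of the wildtype range, 2 above and 1 below, and without the 4 libraries the difference was -0.41. Hba-a2 ranged from 45.4 to 146 in wildtype animals and from 45.5 to 201 in deletion animals, a log2 difference of 0.01 ± 0.33 (SE; limma adjusted p = 0.9995). Of the deletion animals 2 lay above that wildtype range and 4 inside it. Alas2 was 79.1, 111 and 137 in wildtype animals and 65.9, 103 and 162 in deletion animals, a log2 difference of 0.01 ± 0.19 (SE; interval -0.40 to 0.41; limma adjusted p = 0.999). The differences of Alas2 and Hba-a2 turned negative without the 2 libraries above 1% of Gm10800 reads, to -0.17 and -0.29, and with TMM scaling, to -0.00118 and -0.000238.

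The authors' deposited table gave adjusted p-values of 0.999 for the same 5 genes, with log2 differences (deletion minus wildtype) between 0.003 and 0.014 and standard errors of 0.0570 to 0.0738. DESeq2 on the recovered reads gave Hbb-bs 0.04 ± 0.36 (SE), so the values in the authors' deposited table are not on the scale of the other differences given here. The authors' deposited table gave no adjusted p for Hbb-bh1 and Hbb-y.

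**Figure D2:**
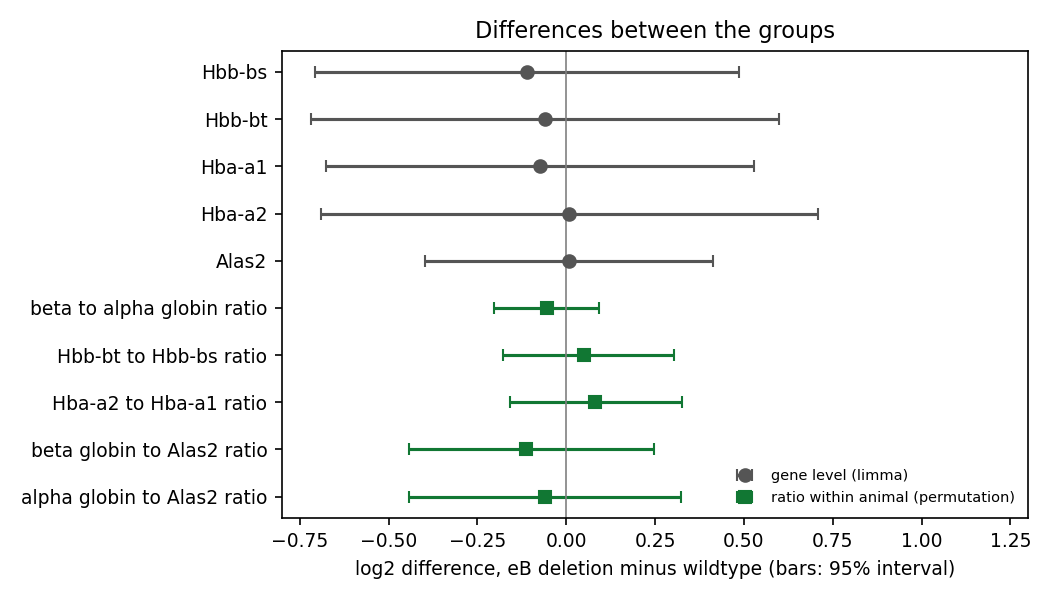
Log2 difference (deletion minus wildtype) with its 95% interval for the 5 tested genes (limma) and for 5 ratios taken within each animal (permutation). Every interval crosses 0, and that of the beta to alpha ratio, -0.20 to 0.09, is narrower than those of the globin genes themselves.

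The embryonic genes were near the limit of detection. Hbb-bh1 had 11 reads in all, in 5 animals, 7 in wildtype and 4 in deletion libraries. Hbb-y had 25 reads in 10 animals, 14 in wildtype and 11 in deletion libraries. Of these 36 reads together, 25 were in the 4 libraries with over 0.1% of Gm10800 reads and 11 in the other 8. Those 4 libraries also had a read on more genes, 32060 to 42505, against 29229 to 30544 in the other 8. Whether the 36 reads belong to embryonic transcripts was not tested.

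Globin levels varied between animals. The summed level of Hbb-bs and Hbb-bt ranged 4.34-fold across the 12 animals, from 745 normalized counts in deletion 5 to 3233 in deletion 4, both deletion animals. In wildtype animals alone the range was 1.98-fold, from 984 to 1951, and without deletion 4 it was 2.81-fold over the other 11. The summed alpha-globin level ranged 4.38-fold, from 162 to 709, and Alas2 ranged 2.46-fold. Deletion 4 and deletion 3 held the top 2 ranks and deletion 5 the lowest rank in all 3 measures. Within groups, Hbb-bs had an SD of 0.62 on the log2 scale, and 21 of 4270 genes within 2-fold of its mean level (0.492%) had one as large. For Hbb-bt, Hba-a1 and Hba-a2 the SD was 0.67, 0.62 and 0.71, and for Alas2 it was 0.39, a value reached by 6.63% of genes of its level.

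Beta and alpha globin levels varied together from animal to animal. Across the 12 animals the log2 summed beta and alpha levels had a Pearson r of 0.98 and a Spearman rho of 0.97 (permutation p = 2e-05 for each, the smallest that 100000 resamples can give; 6e-05 adjusted over 3 relations). Without the 2 animals farthest from the median alpha level, wildtype 3 and deletion 5, r was again 0.98, and it was also 0.98 without the 4 libraries with Gm10800 reads. Within genotypes it was 0.98 in wildtype (exact permutation p = 0.0194, n = 6) and 0.99 in deletion animals (exact permutation p = 0.00278, n = 6), with rho of 0.94 (exact permutation p = 0.0167, n = 6) and 1.00 (exact permutation p = 0.00278, n = 6). The slope of beta on alpha was 0.952 ± 0.0569 (SE) on log2 scales over all animals, 0.786 ± 0.0813 in wildtype and 1.02 ± 0.062 in deletion animals, and the difference between these slopes was not tested.

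Alas2 also varied with alpha globin, with a slope under 1. Its r with summed alpha was 0.95 and rho 0.92 (permutation p = 4e-05 and 8e-05; 6e-05 and 8e-05 adjusted), 0.90 without the same 2 animals, with a slope of 0.578 ± 0.0603 (SE). Within genotypes r was 0.89 in wildtype (exact permutation p = 0.0333, n = 6) and 0.98 in deletion animals (exact permutation p = 0.00556, n = 6). Spearman's rho was 0.71 in wildtype, which did not pass (exact permutation p = 0.136, n = 6), and 0.94 in deletion animals (exact permutation p = 0.0167, n = 6). Alas2 against beta gave r of 0.95 and rho of 0.92, and an r of 0.89 without deletion 4 and 5 (permutation p = 6e-05 for r and 8e-05 for rho, both the same after adjustment).

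**Figure D3:**
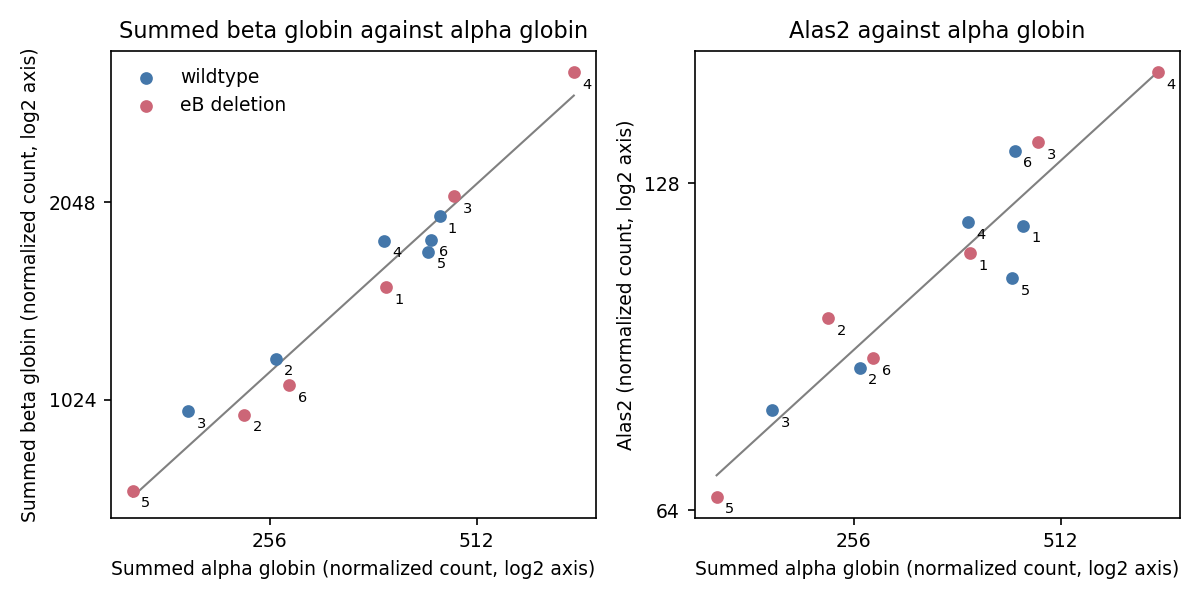
Summed beta-globin and Alas2 normalized counts against summed alpha-globin counts (log2 axes), 1 numbered point per animal, with the fitted line over all 12. Animals of both genotypes lie along each line (r 0.98 for beta, 0.95 for Alas2).

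The beta to alpha ratio, Hbb-bs plus Hbb-bt over Hba-a1 plus Hba-a2, sets the genes inside the receptor cluster against those outside it within the same library. From animal 1 to 6 it was 4.32, 4.53, 5.05, 4.77, 3.95 and 4.09 in wildtype and 4.03, 4.13, 4.41, 4.56, 4.60 and 3.94 in deletion animals. Of the deletion animals 5 lay within the wildtype range and 1, deletion 6, just below it. Means were 4.45 ± 0.415 and 4.28 ± 0.283 (SD, n = 6 each).
The log2 difference was -0.05 ± 0.07 (SE), with a 95% interval of -0.20 to 0.09, or -13.2% to 6.69%, and an exact two-sided permutation p of 0.442 over all assignments of animals to groups (0.714 adjusted over 5 ratios). Without the 4 libraries with Gm10800 reads it was -0.09 ± 0.08 (exact permutation p = 0.314). The SD within groups was 0.116 on the log2 scale, and counting error taken alone gives 0.0891 on average if reads are independent.

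**Figure D4:**
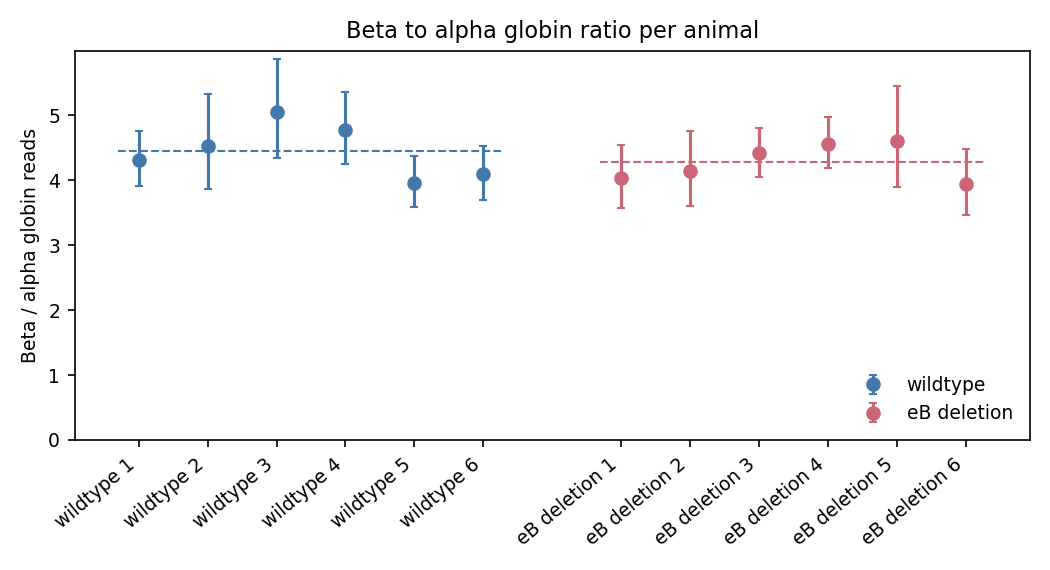
Summed beta-globin over summed alpha-globin reads in each animal, with bars for the 95% Wilson interval of counting error and dashed lines for the group means. Wildtype animals run from 3.95 to 5.05 and deletion animals from 3.94 to 4.60.

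Entered as a covariate in the fit over all genes, log2 summed alpha globin narrowed the intervals of the beta genes. Hbb-bs then differed by -0.06 ± 0.07 (SE), an interval of -13.0% to 5.76%, and Hbb-bt by -0.01 ± 0.12. Alas2, on another chromosome, differed by 0.04 ± 0.10. Within the beta locus, the Hbb-bt to Hbb-bs read ratio was 0.0834 ± 0.0135 in wildtype and 0.0856 ± 0.00694 in deletion animals, all 6 within the wildtype range (exact permutation p = 0.699). The Hba-a2 to Hba-a1 ratio was 0.395 ± 0.0668 and 0.414 ± 0.0353 (exact permutation p = 0.478), and beta to Alas2 was 14.6 ± 1.78 and 13.7 ± 3.52 (exact permutation p = 0.491). The alpha to Alas2 ratio was 3.32 ± 0.611 and 3.20 ± 0.723 (exact permutation p = 0.714). Each of these 4 ratios had p = 0.714 after adjustment over the 5, and without the 4 libraries the log2 differences of the pair over Alas2 were -0.24 for beta (exact permutation p = 0.143) and -0.15 for alpha (exact permutation p = 0.429).

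The 6 class I receptor genes flanking the beta-globin genes, 3 on each side, are set beside them because they share the neighbourhood. Olfr67, 20.7 kb away, differed by -0.08 ± 0.11 on the log2 scale and Olfr66, 26.2 kb away, by -0.08 ± 0.15 (SE). All 6 had negative log2 differences, with a median log2 difference of -0.17. Of all 19100 tested genes 9228 were lower, with a median of 0.004. In limma 1 of the 6 (Olfr69, -0.39 ± 0.17) had an unadjusted p under 0.05, as did 5.64% of all tested genes. The adjusted threshold was passed by 0 of the 6. Whether they differ from the beta-globin genes was not tested.

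Of the other globin genes 2 were tested. Cygb, the gene of cytoglobin, had 2730 reads in all and differed by 0.08 ± 0.10 (SE), and Mb, myoglobin, by -0.09 ± 0.23. Of the red cell lists, 0 genes passed the adjusted threshold. Klf1, Zfpm1, Slc4a1, Slc2a1, Slc2a4, Hmox1, Emcn and Tie1 are named after their values were seen. Of 8 heme synthesis enzymes tested, 6 were higher and 2 lower (median 0.05, against 0.00 over all tested genes). Alas1, the form of ALAS found in most tissues, was at 0.17 ± 0.08 (SE). Fech, which inserts iron into protoporphyrin to form heme, was at 0.02 ± 0.05. Of 15 red cell membrane genes 5 were higher and 10 lower (median -0.17), with Epb41, protein 4.1 of the membrane skeleton, at 0.01 ± 0.04. Slc4a1, the band 3 anion exchanger, was at -0.47 ± 0.49. Of 17 erythroid regulators 7 were higher and 10 lower (median -0.01), with Ldb1 at -0.01 ± 0.05. The red cell factor genes Klf1 and Zfpm1 were at -0.72 ± 0.29 and -0.35 ± 0.14. Late red cell genes stood at 9 and 9 of 18, and genes of heme and iron handling at 6 higher and 8 lower of 14. Markers of neutrophils, which blood also carries, were lower in 9 of 10 (median -0.34), and those of endothelial cells in 11 of 12 (median -0.15). B cell markers were lower in 6 of 7 (median -0.19), and platelet and megakaryocyte markers in 2 of 4 (median -0.05). Of all 19100 tested genes 9228 were lower, and 0 genes of these lists passed the threshold. Ltf, lactoferrin, which glands also make, had by far the highest neutrophil list level (mean 5050 normalized counts, against 401 for Mmp9, the next), so the summed range of 4529 to 12299 in wildtype and 3110 to 7728 in deletion animals is largely that of Ltf. The part of these cells in the globin values was not tested.

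An unadjusted p under 0.05, which 5.64% of all tested genes had, was reached by 1 of 8 heme synthesis enzymes (Alas1, higher), 1 of 14 heme and iron genes (Hmox1, heme oxygenase, higher at 0.26 ± 0.09) and 0 of 18 late red cell genes. In the membrane list 2 of 15 had one, the glucose transporter genes Slc2a1 (-0.21 ± 0.07) and Slc2a4 (-0.46 ± 0.14), both lower. Among the regulators 3 of 17 had one, Klf1 and Zfpm1 lower and Nfe2l2 higher at 0.12 ± 0.05. It was also reached by 1 of 10 neutrophil genes (Lcn2, lower at -0.58 ± 0.19) and by 3 of 12 endothelial genes (Emcn, Vwf and Tie1, all lower). Among B cell genes 1 of 7 had one (Ighm, lower), as did 1 of 4 platelet and megakaryocyte genes (Ppbp, lower).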

How the data were processed

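The authors' deposited table holds, per gene and animal, DESeq2-normalized counts (a normalized signal), beside a comparison with log2 fold changes, a Wald score and p-values. STAR 2.6.0, DESeq2 and genome GRCm38.p6 are named by the submitters' processing notes; the counter, annotation and strand setting remain not given in the sources used here. Whole reads were recovered from the normalized counts, with 100% of values whole within 0.001. Gene positions came from GENCODE M21 (44811 Ensembl gene identifiers matched, 119 not). The genes and lists were chosen with earlier results of these data known. The text names the 7 members, up to 4 genes of highest mean of each list or those past the threshold, genes most like alpha globin (not every gene of that rule is reported here), and 3 receptors on each side; a gene named outside that rule is said to be so.

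Genes with a normalized count of at least 10 in at least 6 animals entered a limma-trend fit (limma 3.58.1, R 4.3.3) of log2 values after adding a pseudocount of 1, with Benjamini-Hochberg adjustment over all genes tested. A fold change on that scale understates the change of low genes. Ratios used recovered reads and exact permutation tests; correlations used 100000 resamples (scipy 1.17.1). Alternatives were edgeR 4.0.16, DESeq2 1.42.0, TMM or total-read scaling, other filters and pseudocounts, the replicate block, and leaving out libraries. The fits were tested on simulated data. Depth was 13152662 to 23059835 reads; counting intervals cover counting error only.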

Additional observations from a re-analysis of the deposited data

Results flagged for a closer look

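Of 28 groups of 6 values checked for a sample far from the others, 2 had one, with about 1.4 to be had by chance at 1 in 20. Both are Hbb-y. Wildtype 2 had a normalized count of 8.66, with the nearest other wildtype animal at 2.90. Deletion 4 had 5.47, with the nearest other deletion animal at 1.92. These rest on 6 and 5 reads, and the same 2 libraries had the largest shares of reads on Gm10800, 11.02% and 2.38%. They also had a read on the most genes, 42505 and 39082. The part of the Gm10800 reads was not tested.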

How the results depend on the processing

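The count of genes past the threshold was 0 with limma and edgeR and 22 with DESeq2, and 0 to 1 when each animal was left out. Calls of the 5 tested members did not change under any alternative run; signs turned. With edgeR and DESeq2 respectively, Hbb-bs became 0.0294 and 0.0359, Hbb-bt 0.00643 and 0.0206, and Hba-a1 0.0279 and 0.0401. With TMM scaling Hba-a2 became -0.000238 and Alas2 -0.00118. Without the 2 and the 4 libraries with most Gm10800 reads, Hba-a2 was -0.29 and -0.31, and Alas2 -0.17 and -0.23. Without those 2 the Hbb-bt to Hbb-bs ratio was -0.00639. The cause was not tested. Leaving out each animal, the log2 difference ranged from -0.351 to 0.0737 for Hbb-bs, -0.27 to 0.14 for Hbb-bt, -0.30 to 0.13 for Hba-a1, -0.21 to 0.22 for Hba-a2 and -0.11 to 0.14 for Alas2. The beta to alpha ratio ranged from -0.09 to -0.02, Hbb-bt to Hbb-bs from -0.0381 to 0.107, Hba-a2 to Hba-a1 from 0.01 to 0.15, beta to Alas2 from -0.23 to -0.03 and alpha to Alas2 from -0.157 to 0.0113. The median of heme synthesis enzymes ranged from 0.01 to 0.06, heme and iron handling from -0.04 to 0.02, red cell membrane from -0.174 to -0.0841, late red cell genes from -0.03 to 0.01 and erythroid regulators from -0.08 to -0.004. The labels do not say whether the replicate numbers pair the animals, and the main tests treat them as unpaired. Of 6 same-numbered pairs, 1 had a correlation of deviations over 0.1, and for 0 numbers did the pair correlate best with each other. Such correlations show no shared effect of the number but cannot settle how the animals were matched. With the replicate block the count was 0, Hbb-bs was -0.11 ± 0.25 (limma adjusted p = 0.974), and the beta to alpha ratio -0.05 (exact permutation p = 0.406). Depth limits Hbb-bh1 and Hbb-y most, with 11 and 25 reads in all.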

Other observations

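Over the 19100 tested genes, the 5 members held the first 5 places in likeness to summed alpha globin (Pearson r of log2 values over 12 animals, which share library and depth). Hba-a1 and Hba-a2 are part of that sum, and Hbb-bs followed at 0.98, Hbb-bt at 0.96 and Alas2 at 0.95. The next 10 ran from 0.77 to 0.83 and were led by Spc25 (0.83), a kinetochore gene. Of these 10, 5 lie on chromosome 2, which holds 8.52% of the tested genes. An r over 0.5 was reached by 3.08% of all tested genes, by 6 of 10 neutrophil genes and by 2 of 15 red cell membrane genes. Of the other red cell lists, 3 of 18 late red cell genes and 0 of 8 heme synthesis enzymes reached it. Among genes of heme and iron handling it was 0 of 14, and among erythroid regulators 0 of 17. Platelet and megakaryocyte genes had 1 of 4, B cell genes 1 of 7 and endothelial genes 0 of 12. Olfactory sensory neuron genes had 0 of 12 and other globin genes 0 of 2. Slc4a1, band 3, named after its values were seen, was 22.3 normalized counts in wildtype 1 and 94.1 in wildtype 4, animals whose Hbb-bs values were 1794 and 1626.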
